A study of Mus musculus with 12 samples.

Results

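Hippocampal RNA of mouse pups was compared between 6 libraries labelled CX3CL1-ct and 3 libraries labelled CAMK, which are 9 of the 12 libraries of the study. The CX3CL1-ct pups carried the CaMKIIα-tTA driver together with Tg-CX3CL1-ct, a transgene named after the C-terminus of the chemokine CX3CL1, on a strain given as C57/BL6. The CAMK pups carried the driver without the transgene. Both groups thus share the driver, and the comparison asks what the transgene adds to it. The other 3 libraries are wild type (WT) and serve below as a reference for single genes. Per the labels, the transgenic line was backcrossed to C57BL/6J for 6 generations before the cross with the driver line, and the pups were littermates killed at postnatal day 4, while the series' own design text gives day 0. No drug is named for any group, and the labels give no sex, litter, founder line or batch. Whether a library is 1 pup is not given either, so the spread behind each p-value is that between libraries and may be technical.

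CX3CL1 is made mainly by neurons as a membrane protein. The proteases ADAM10 and ADAM17 shed its outer part, which binds the receptor CX3CR1 on microglia, and the stub that stays behind is cut within the membrane, which frees the C-terminal tail into the cell. In the driver line the Camk2a promoter, active in forebrain excitatory neurons, makes the tetracycline transactivator tTA, which switches on transgenes placed behind its operator. The dentate gyrus of the hippocampus is still forming after birth in the mouse, so progenitors, dividing cells and young neurons are all present in this tissue.

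Values are FPKM, so that levels are scaled for transcript length and for the size of the library. With a floor of 1 FPKM in 3 or more of the 9 libraries 16152 genes remained, 36 of them were listed at 0 in a whole group and left out, and 16116 were tested with limma on log2(FPKM + 1). Every log2 difference below is CX3CL1-ct minus CAMK on that scale, where the added 1 makes differences of low genes smaller. The depth was 12900000 to 16200000 fragments per library by an estimate from the lowest FPKM steps. Markers of hippocampal neurons were present in each of the 9 libraries: Zbtb20 at 24.7 to 57.2 FPKM, Neurod6 at 43.8 to 163 FPKM, Prox1 of dentate granule neurons at 4.78 to 13.2 FPKM, Wfs1 at 5.22 to 8.47 FPKM and Dcx of young neurons at 110 to 158 FPKM.

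The 6 CX3CL1-ct libraries were not alike. CX3CL1-ct 1, 2 and 3 differed from each other by a median of 0.0553 to 0.0722 over genes on the log2 scale, while the 12 other pairs within CX3CL1-ct differed by 0.0968 to 0.182 and the 3 pairs within CAMK by 0.0843 to 0.18. The variance was 5.75 to 14.9 times that of counting noise in the other pairs within CX3CL1-ct and 3.48 to 12.1 times within CAMK. Among CX3CL1-ct 1, 2 and 3 it was 2.19 to 3.03 times, and repeat preparations of 1 source could exceed counting noise too. Whether they are 3 separate pups cannot be told apart from 1 source here, so they were kept as labelled, and results are also given with them averaged or left out. These 3 libraries held genes of the olfactory bulb, a list added after their values were seen. Tbx21, a transcription factor of mitral and tufted cells of the bulb, stood at 2.83, 2.43 and 2.38 FPKM in CX3CL1-ct 1, 2 and 3, at 0.0355 to 0.168 FPKM in CX3CL1-ct 4 to 6, and at 0 to 0.0527 FPKM in CAMK. Cdhr1, a cadherin of the same cells, stood at 19.1 to 19.8 FPKM in the first 3 and at 1.90 to 4.04 FPKM in the others of the group, against 1.51 to 1.96 FPKM in CAMK. The summed FPKM of the 19 bulb genes was 426 to 445 in CX3CL1-ct 1 to 3, 217 to 350 in CX3CL1-ct 4 to 6 and 210 to 233 in CAMK, and only Tbx21 was at 0 in any of the 9 libraries.

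CX3CL1-ct 5 stood apart in other ways. Its summed FPKM of the 22 striatum genes was 444, against 153 to 201 in the other CX3CL1-ct libraries and 159 to 192 in CAMK. Penk, the enkephalin precursor of striatal neurons, stood at 22.1 FPKM in CX3CL1-ct 5 and at 1.63 to 5.43 FPKM in the other 8 libraries. The thalamus list, also of 22 genes, summed to 250 in CX3CL1-ct 5, 183 in CAMK 3 and 223 in CAMK 2, and to 100 to 135 in the other 6 libraries, and members such as Gbx2 and Pou4f1 were at 0 in some of the 9 libraries. Xist, the RNA that coats the inactive X chromosome in female cells, stood at 107 FPKM in CAMK 2, 65.5 FPKM in CAMK 3 and 96.3 FPKM in CX3CL1-ct 5, and at no more than 8.49 FPKM in the other 6. CAMK 3 held the Y-linked Ddx3y as well, at 7.34 FPKM, between CAMK 1 at 18.1 FPKM and CAMK 2 at 0.743 FPKM. Xist and the thalamus list were thus high in libraries of both groups, and the striatum list in CX3CL1-ct 5 among the 9, and their part in the results below was not tested unless a value is given.

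**Figure D1:**
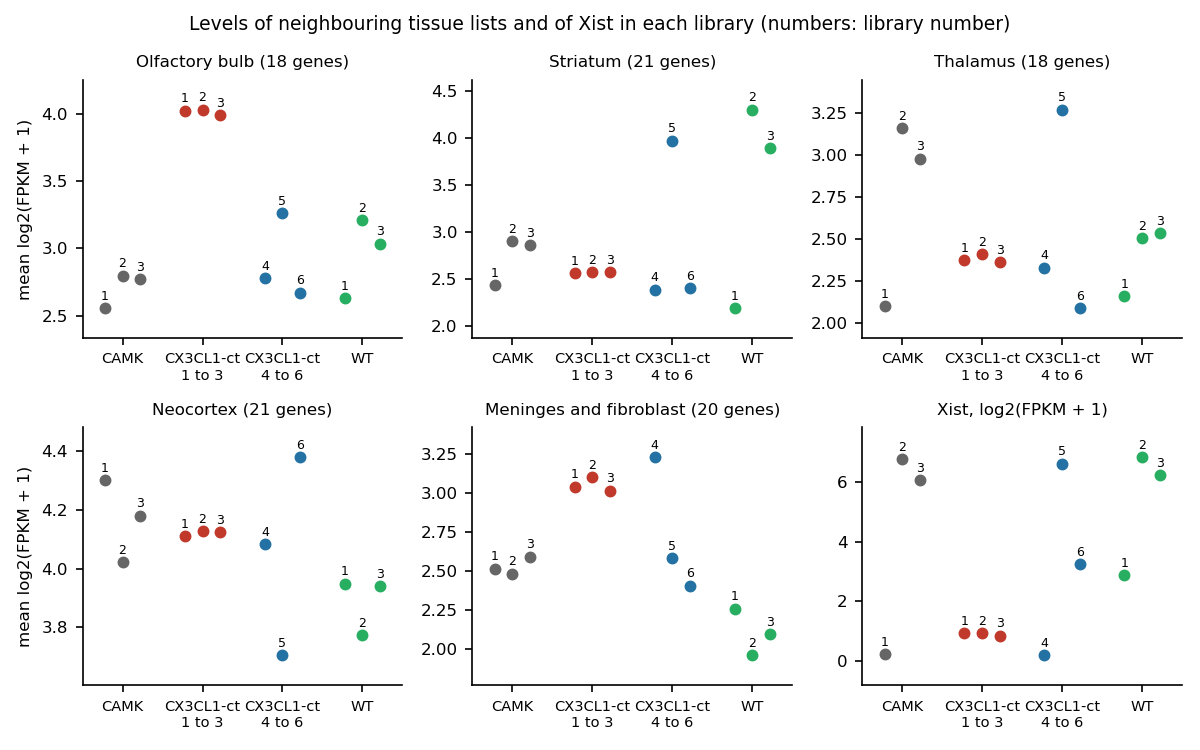
Mean log2(FPKM + 1) of 5 gene lists and log2(FPKM + 1) of Xist (y axes) in each library, where points are libraries and the digits above them are library numbers, with CAMK in grey, CX3CL1-ct 1 to 3 in red, CX3CL1-ct 4 to 6 in blue and WT in green. The bulb list lies at 3.988 to 4.028 in CX3CL1-ct 1 to 3 and at no more than 3.26 elsewhere, the striatum list at 3.968 in CX3CL1-ct 5, and Xist is high in CAMK 2, CAMK 3 and CX3CL1-ct 5. WT 2 and WT 3 are high for striatum and Xist too.

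The gene named by the transgene was read first. Cx3cl1 (chromosome 8) stood at 41.6, 34.7 and 38.5 FPKM in CAMK 1, 2 and 3, and in CX3CL1-ct from 33.5 to 48.4 FPKM with a median of 37.7. The groups overlapped, and the exact two-sided permutation p over the 84 splits of 9 libraries was 0.917, where the smallest possible is 0.0119. Fragments of a transgene count here only where they align to Cx3cl1 itself, so this value does not check the labels. Cx3cr1, the receptor on microglia, stood at 4.42 to 6.89 FPKM in CX3CL1-ct (median 5.20) and at 4.45, 6.41 and 6.04 FPKM in CAMK. Camk2a, whose promoter the driver uses, stood at 17.3 to 34.0 FPKM (median 23.7) and at 27.4, 22.8 and 23.6 FPKM in the same order. Neither separated the groups.

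Of the 12 genes of CX3CL1 cleavage and reception, none passed the test. The sheddases Adam10 and Adam17 averaged 18.5 and 6.47 FPKM in CX3CL1-ct against 16.9 and 5.83 FPKM in CAMK, with log2 differences of 0.12 and 0.13. Aph1c, a γ-secretase subunit, was the member that varied most within CX3CL1-ct: it stood at 1.39 FPKM in CX3CL1-ct 4 and at 2.47 to 3.11 FPKM in the other 5, against 1.27, 1.58 and 1.26 FPKM in CAMK. Its log2 difference was 0.60 (SE 0.17, limma adjusted p = 0.783), and 0.75 with CX3CL1-ct 1 to 3 alone, where it passed (0.0172). The list's median was 0.03, and it lost its sign under median-of-ratios scaling (-0.007) and under quantile normalization (-0.002).

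Over all genes few single differences passed the test. Limma called 1 of 16116 genes higher in CX3CL1-ct at an adjusted p under 0.05, which is 0.00621 percent, and 0 lower. An unadjusted p under 0.05 was reached by 995 genes, or 6.17 percent, where chance alone would give 806. Of these, 840 were higher in CX3CL1-ct (5.21 percent of all genes) and 155 lower (0.962 percent). That split depended on the scaling between libraries: higher genes made up 84.4 percent of the genes with p under 0.05 as deposited, but 55.9 percent after median-of-ratios scaling (471 higher, 372 lower) and 56.2 percent after quantile normalization (473 higher, 368 lower). The median log2 difference of all genes was 0.036 as deposited, and 63.3 percent of the genes were above 0. All 6 CX3CL1-ct libraries lay above all 3 CAMK libraries in 453 genes (2.81 percent) and below them in 75 (0.465 percent), which makes 3.28 percent in either direction. An unadjusted p under 0.01 was reached by 181 genes (1.12 percent). These shares are the background for the gene lists below.

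The count of genes with p under 0.05 rested on the set of libraries. With CX3CL1-ct 4 to 6 alone set against CAMK, limma called 1 gene, the small nucleolar RNA Gm22620, and 346 genes had p under 0.05. With CX3CL1-ct 1 to 3 alone it called 242, of which 191 were higher and 51 lower, and 2692 had p under 0.05. With the 3 alike libraries averaged into 1, no gene passed in limma (count 0), while 495 reached p under 0.05 before adjustment. Many genes named below passed with CX3CL1-ct 1 to 3 alone, among them Eomes, Frmd7, Nmb, Sall1, Etv1, Aldh1a2, Bmp6, Lpar1 and the histone genes Hist1h3c and Hist1h2ab. None of these passed in the comparison of all 6.

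Large differences were mostly those of short RNAs. A log2 difference over 1 in either direction was found in 79 genes, of which 51 are small or structural RNA genes, 9 processed pseudogenes and 15 protein-coding genes. Of the 79, 7 separated the groups, beside 528 of all 16116 genes tested (3.28 percent). Genes picked for a large difference between the groups separate them more often by construction, so these shares are no result about the 79. Snord47, a small nucleolar RNA, averaged 905 FPKM in CX3CL1-ct and 246 FPKM in CAMK, a log2 difference of 5.11 (limma adjusted p = 0.794), with overlapping groups. Among the 15 coding genes, 12 were higher in CX3CL1-ct. Besides Eid1 these include Cdhr1, Eomes, Frmd7, Ms4a15, Th, Mafa, Sp8 and Pcp4l1, each highest in CX3CL1-ct 1 to 3, and the Y-linked Ddx3y and Eif2s3y, each lowest in the 3 libraries where Xist was high. Frmd7, Ms4a15, Th and Mafa were under 1 FPKM in every CAMK library and passed the floor only through CX3CL1-ct. The count of 12 is thus in part set by that floor. Ptgds, a prostaglandin synthase abundant in the meninges, stood at 125 to 539 FPKM in CX3CL1-ct (median 197) and at 138, 58.4 and 88.1 FPKM in CAMK, where its highest value was in CX3CL1-ct 4. The 3 coding genes that were lower are Tcf7l2, a transcription factor of thalamic neurons, and the hypothalamic hormone precursors Oxt and Avp. Oxt was listed at 0 in 5 CX3CL1-ct libraries and in CAMK 1, and at 3.78, 3.81 and 3.91 FPKM in CAMK 2, CAMK 3 and CX3CL1-ct 5.

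**Figure D2:**
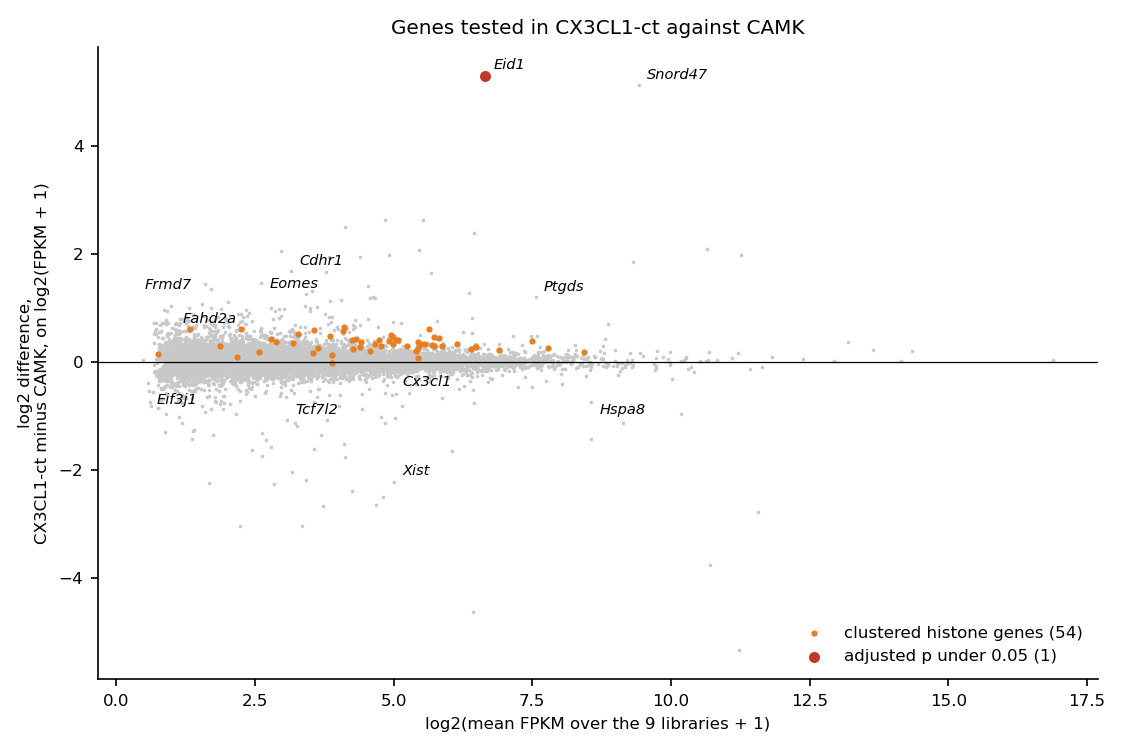
Log2 difference between CX3CL1-ct and CAMK (y axis) against the mean level over the 9 libraries (x axis, log2), with 1 point per gene for the 16116 genes tested. Eid1 is the single gene past the threshold, at 5.29, and 53 of the 54 clustered histone genes (orange) lie above 0.

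Eid1 rose in CX3CL1-ct. It encodes an inhibitor of the histone acetyltransferase EP300 and lies on the plus strand of chromosome 2 at 125673095 to 125674785 (mm10). In CAMK 1, 2 and 3 it stood at 0.232, 6.82 and 4.62 FPKM, against 131, 147, 156, 149, 151 and 150 FPKM in CX3CL1-ct 1 to 6. The groups lay far apart and the 6 CX3CL1-ct libraries were nearly level. The log2 difference was 5.29 (SE 0.46, limma adjusted p = 0.00708), higher in 6 of 6 libraries. WT libraries were spread over the whole range between the groups, at 134, 9.45 and 64.0 FPKM, so a high Eid1 level was not particular to pups with the transgene. The call held in each fit that left out 1 library, with log2 differences of 4.48 to 5.82. It ended in 7 other fits with log2 differences of 5.27 to 6.06, among them those with all 12 libraries (adjusted p = 0.0963), with CX3CL1-ct 1 to 3 left out (adjusted p = 0.326) and with these averaged (adjusted p = 0.223).

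Other genes near Eid1 separated the groups as well, in a window chosen after Eid1 was seen. Within 10 Mb on either side 209 genes besides Eid1 were tested, of which 7 had p under 0.01 (3.35 percent, against 1.09 percent of the genes outside the window). Of the 209, 11 lay higher and 3 lower in all CX3CL1-ct libraries (6.70 percent, against 3.23 percent). Among the 11 are Shc4, whose exons overlap Eid1, and Sqrdl, and both passed the floor only through CX3CL1-ct. Shc4 is also among the 7. Over whole chromosomes, the share with p under 0.01 was 2.57 percent on chromosome 13 and 2.35 percent on chromosome 19. Fahd2a, of the fumarylacetoacetate hydrolase family and 1.76 Mb from Eid1, stood at 3.03, 3.05 and 3.61 FPKM in CAMK and from 4.63 to 5.85 FPKM in CX3CL1-ct (median 5.25). The groups did not overlap, and the log2 difference was 0.57 (SE 0.09, limma adjusted p = 0.319). Eif3j1, a subunit of the translation initiation factor eIF3, lies 3.64 Mb before Eid1 and had the opposite sign, with 3.72, 4.03 and 4.15 FPKM in CAMK against 1.98 to 2.43 FPKM (median 2.21). Its log2 difference was -0.62 (SE 0.08, limma adjusted p = 0.12), and it passed where genes with a group at 0 were kept (0.0219), in the fit without a trend (0.037) and with CX3CL1-ct 1 to 3 alone (0.0134). Its near-identical copy Eif3j2 went the other way, at 5.98, 6.81 and 7.00 FPKM in CAMK against 8.08 to 10.5 FPKM, so the division of fragments between the copies is uncertain.

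Smaller differences had the same shape. Hypk, a partner of the ribosomal acetyltransferase complex NatA, stood at 28.6, 29.3 and 29.1 FPKM in CAMK and at 32.2 to 34.5 FPKM in CX3CL1-ct. Haus2, a subunit of the augmin complex of the spindle, stood at 8.94, 10.1 and 10.2 FPKM against 7.52 to 8.90 FPKM. Shc4, an adaptor protein whose exons overlap Eid1 on the opposite strand, stood at 0.981, 0.865 and 0.644 FPKM against 1.14 to 2.15 FPKM, and the sources used here do not say if the strand entered the counts. In WT 1, Eif3j1 (1.82), Haus2 (7.58) and Shc4 (1.70) lay at the level of CX3CL1-ct, as Eid1 did. In WT 2, Eif3j1 (3.95), Haus2 (9.67) and Shc4 (0.525) lay at or near the level of CAMK, as Eid1 did. In WT 3 these genes did not run with Eid1. There Eid1 (64.0) lay between the groups, nearer to CX3CL1-ct on the log2 scale. Eif3j1 (3.17) lay between the groups too, while Haus2 (10.3) and Shc4 (0.863) lay at or near the level of CAMK. In other genes near Eid1 that separated the groups, WT ran differently: in Adal, Zfp106 and Ckap2l, WT 1 lay nearer to CAMK than WT 2 did, and Rasgrp1 lay beyond CX3CL1-ct in all 3 WT libraries. Fahd2a stood at 6.15, 4.43 and 4.57 FPKM in WT 1, 2 and 3, above CX3CL1-ct in WT 1 and between the groups in WT 2 and 3. Hypk lay below the range of CX3CL1-ct in all 3 WT libraries. Farther out, Scg5, a chaperone of prohormone convertase 2, stood at 57.9 to 68.8 FPKM in CAMK and at 86.0 to 116 FPKM in CX3CL1-ct (log2 difference 0.53, limma adjusted p = 0.6, and 0.00817 with the striatum level as a covariate), and at 86.3, 65.8 and 75.7 FPKM in WT 1, 2 and 3. Scg5 was picked out after its values were seen.

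**Figure D3:**
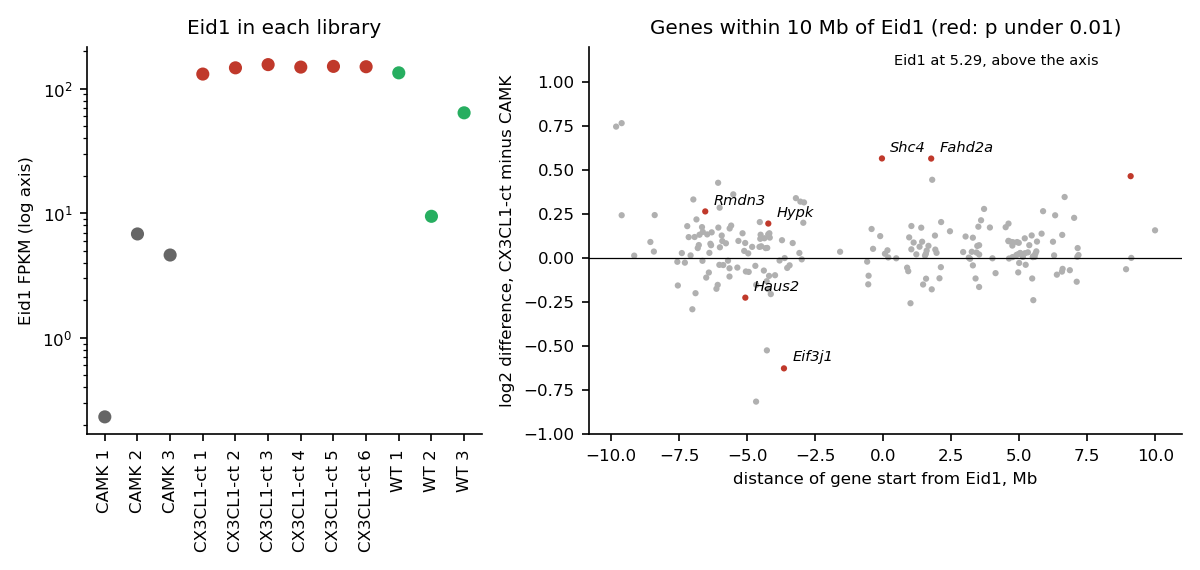
Left, Eid1 FPKM (log axis) in each library of CAMK (grey), CX3CL1-ct (red) and WT (green). Right, log2 difference between CX3CL1-ct and CAMK (y axis) of the genes tested within 10 Mb of Eid1 against their distance from it, with red points for an unadjusted p under 0.01. Eid1 itself, at 5.29, and a gene at 1.98 lie above the axis of the right panel, and genes at -1.12 and -1.36 lie below it.

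The 36 genes left out hold the sharpest contrasts in the table, but a 0 there may be a failed estimate. In 8 of them all 6 CX3CL1-ct libraries were listed at 0 while every CAMK library was above 1 FPKM: the splicing regulator Celf2, 3 predicted genes inside Celf2 (Gm10115, Gm10855 and Gm26315), the structural RNAs Rn7sk and Rn7s6, and the small nucleolar RNAs Snord34 and Gm24729. In CAMK 1, 2 and 3 Celf2 was listed at 99.5, 101 and 101 FPKM, and WT 1, 2 and 3 held 90.9, 103 and 102 FPKM, while Snord34 and Gm24729 were at 0 in WT too. In the opposite direction, Gm13997, a noncoding transcript that also lies on chromosome 2, was at 0 in CAMK, at 2.49 to 5.41 FPKM in CX3CL1-ct and in WT 1, 2 and 3 at 3.18, 0.715 and 1.66 FPKM, and 27 more genes were at 0 in CAMK without reaching 1 FPKM in every CX3CL1-ct library. Rn7sk, the 7SK RNA, which keeps P-TEFb in an inactive complex, was so abundant elsewhere that its 0 moved the sums. The FPKM of all genes summed to 573000 ± 17500 (SD, n = 6) in CX3CL1-ct and 641000 ± 21500 (SD, n = 3) in CAMK, with an exact permutation p of 0.0119, and without Rn7sk to 573000 against 561000, with an exact permutation p of 0.369. By its full length of 331 nt, Rn7sk would hold 2.25 to 3.01 percent of the fragments in CAMK. Spreading these over the other genes would add 0.033 to 0.044 to each on the log2 scale. Both would be smaller if the FPKM used a length shortened by the fragment length, as the depth estimate here did. The median gene was higher in CX3CL1-ct by 0.036, and the part of Rn7sk in that was not tested. Whether Rn7sk entered the authors' scaling is not given in the sources used here.

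Genes of chromatin assembly and cell division were slightly higher in CX3CL1-ct as a group. Of the 54 clustered histone genes tested, which encode the histones made during DNA replication, 53 had a positive log2 difference, 30 had p under 0.05 and all were higher, and 11 separated the groups, or 20.4 percent of the list. Over all genes those shares were 63.3, 5.21 and 2.81 percent. The median of the list was 0.33, and it was positive with CX3CL1-ct 4 to 6 alone (0.21), with CX3CL1-ct 1 to 3 alone (0.46) and under both other scalings (0.286 and 0.308). No single member passed the adjusted threshold. Members are near-identical copies of one another in part, so they share fragments and are not independent.

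Hist1h1c, a linker histone, had the smallest p of the list. It stood at 44.8, 41.8 and 43.1 FPKM in CAMK 1, 2 and 3 and from 52.0 to 58.7 FPKM in CX3CL1-ct (median 53.3), with a log2 difference of 0.32 (SE 0.05, limma adjusted p = 0.507). The groups did not overlap, and the range within each was narrow. Hist1h3c, a core histone H3 gene, stood at 24.3, 20.7 and 25.2 FPKM against 27.8 to 36.6 FPKM (median 34.1), with a log2 difference of 0.49. Hist1h2ab, a histone H2A gene, stood at 13.6, 9.56 and 11.6 FPKM against 14.9 to 23.5 FPKM (median 17.9), with a log2 difference of 0.64. WT lay within the range of CX3CL1-ct for Hist1h2ab and within or above it for Hist1h3c. For Hist1h1c, WT 1 lay in that range at 55.5 FPKM, and WT 2 and 3 lay between the groups, nearer to CAMK, at 47.2 and 45.2 FPKM. As a list, histones averaged 4.244 to 4.577 in CAMK on the log2 scale, 4.683 to 4.793 in WT and 4.598 to 4.935 in CX3CL1-ct.

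Mitotic genes were the second such group. All 32 tested had a positive log2 difference, with a median of 0.21, and 10 had p under 0.05. In 5 of them all CX3CL1-ct libraries lay above CAMK. The mean level of the list was 1.829 to 1.951 in CAMK, 1.958 to 2.177 in CX3CL1-ct and 2.168 to 2.357 in WT, so CAMK was the lowest of the 3 groups. The count of positive members was 30 under median-of-ratios scaling and 29 under quantile normalization. The median was 0.13 with CX3CL1-ct 4 to 6 alone and 0.30 with CX3CL1-ct 1 to 3 alone. Cenpa, the histone H3 variant of centromeres, stood at 2.14, 2.68 and 2.79 FPKM in CAMK and from 3.34 to 4.50 FPKM in CX3CL1-ct (median 3.69), with a log2 difference of 0.45 (SE 0.10, limma adjusted p = 0.783). Cdk1, the kinase that starts mitosis, stood at 4.70, 4.80 and 5.76 FPKM against 5.93 to 7.15 FPKM (median 6.35). Birc5, a subunit of the chromosomal passenger complex, stood at 3.54, 3.03 and 3.47 FPKM against 3.55 to 4.76 FPKM (median 4.36), where CX3CL1-ct 5 all but touched CAMK 1. Top2a and Mki67, markers of cycling cells, averaged 11.7 and 7.36 FPKM in CX3CL1-ct against 9.28 and 6.07 FPKM in CAMK, with overlapping groups.

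Genes of DNA replication had a positive log2 difference in 26 of 27 (24 under each of the other scalings), with a median of 0.17, and 5 had p under 0.05. Rrm1, a subunit of ribonucleotide reductase, stood at 9.73, 10.5 and 10.3 FPKM in CAMK and from 10.6 to 13.3 FPKM in CX3CL1-ct. Slbp, which binds the end of histone mRNAs, averaged 15.6 FPKM in CX3CL1-ct and 13.1 FPKM in CAMK, with a log2 difference of 0.23 and overlapping groups. The mean level of the list was 2.196 to 2.253 in CAMK, 2.342 to 2.504 in WT and 2.289 to 2.469 in CX3CL1-ct. In all 3 lists CX3CL1-ct 1 to 3 lay highest within the group, and the same libraries held the bulb genes, a tissue that keeps receiving dividing neuroblasts after birth. The part of bulb RNA in these lists was not tested. With CX3CL1-ct 1 to 3 left out the medians were 0.21, 0.13 and 0.09 against an all-gene median of 0.0448.

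**Figure D4:**
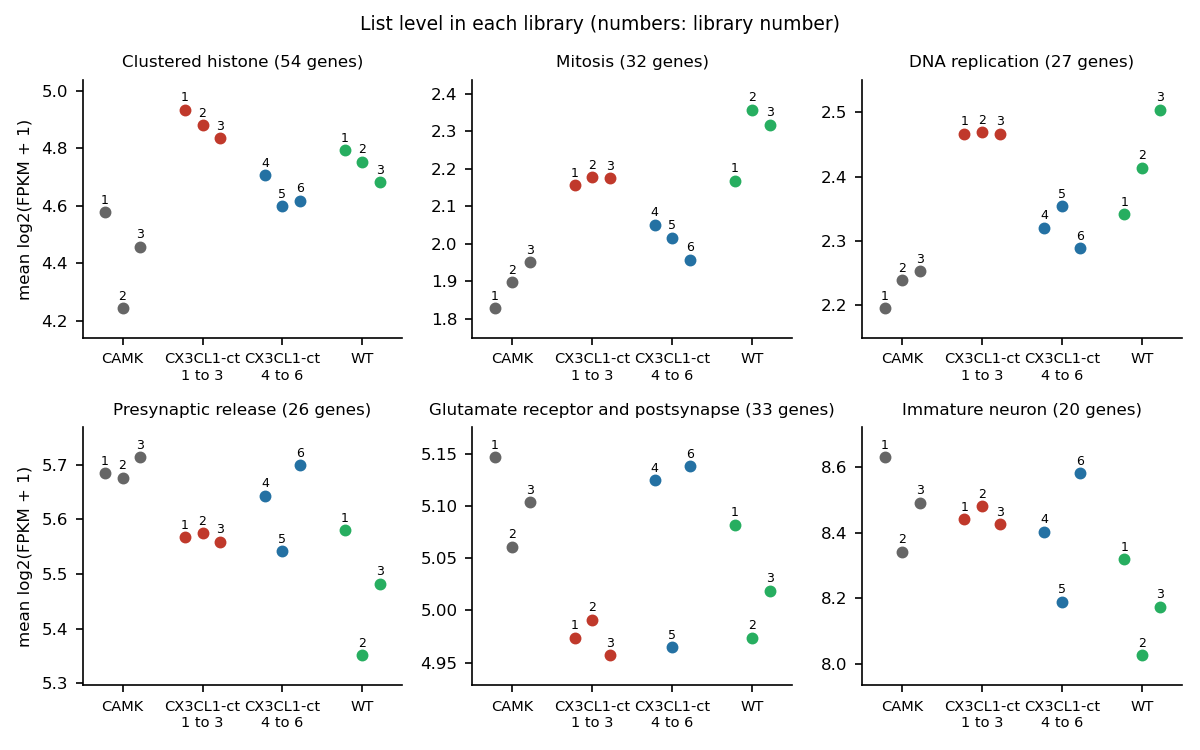
Mean log2(FPKM + 1) of 6 gene lists (y axes) in each library (points, numbered) of CAMK (grey), CX3CL1-ct 1 to 3 (red), CX3CL1-ct 4 to 6 (blue) and WT (green). The histone, mitosis and replication lists lie above all 3 CAMK libraries in each of the 6 CX3CL1-ct libraries, while the presynaptic and immature neuron lists overlap.

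The promoters of histone and mitotic genes are shown because 11 and 5 members of these lists lay above CAMK in every CX3CL1-ct library. Each is the 250 bases before the start of the gene in RefSeq (GRCm38.p6), read 5′ to 3′ on the strand of the gene. Capitals mark matches on either strand to CCAAT, to the TATA box word TATAAA, to TTTGAA, part of the CHR element of cell cycle genes, and to ATTTGCAT, the octamer found in histone H2B promoters. That of Birc5 holds none of the 4.
Hist1h1c, chr13:23738557-23738806, plus strand: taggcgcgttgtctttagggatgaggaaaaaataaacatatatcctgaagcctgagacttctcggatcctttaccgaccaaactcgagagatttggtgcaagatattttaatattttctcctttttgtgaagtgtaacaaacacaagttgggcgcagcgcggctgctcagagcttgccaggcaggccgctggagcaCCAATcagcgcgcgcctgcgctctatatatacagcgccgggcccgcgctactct
Hist1h3c, chr13:23745522-23745771, minus strand: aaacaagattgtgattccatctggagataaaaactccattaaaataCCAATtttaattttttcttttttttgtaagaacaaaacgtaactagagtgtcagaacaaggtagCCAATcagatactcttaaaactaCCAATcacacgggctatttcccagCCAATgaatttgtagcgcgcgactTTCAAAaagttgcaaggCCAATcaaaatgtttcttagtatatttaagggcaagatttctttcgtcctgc
Hist1h2ab, chr13:23750838-23751087, plus strand: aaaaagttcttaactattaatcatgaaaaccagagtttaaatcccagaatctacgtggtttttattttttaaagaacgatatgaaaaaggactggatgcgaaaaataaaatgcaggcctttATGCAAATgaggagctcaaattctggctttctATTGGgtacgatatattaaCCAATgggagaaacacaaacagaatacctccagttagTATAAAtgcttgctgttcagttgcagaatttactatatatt
Cdk1, chr10:69352913-69353162, minus strand: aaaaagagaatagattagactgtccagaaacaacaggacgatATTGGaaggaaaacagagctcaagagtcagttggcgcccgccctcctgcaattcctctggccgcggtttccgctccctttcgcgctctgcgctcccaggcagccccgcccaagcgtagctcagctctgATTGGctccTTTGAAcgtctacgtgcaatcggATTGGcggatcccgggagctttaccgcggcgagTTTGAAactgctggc
Cenpa, chr5:30666636-30666885, plus strand: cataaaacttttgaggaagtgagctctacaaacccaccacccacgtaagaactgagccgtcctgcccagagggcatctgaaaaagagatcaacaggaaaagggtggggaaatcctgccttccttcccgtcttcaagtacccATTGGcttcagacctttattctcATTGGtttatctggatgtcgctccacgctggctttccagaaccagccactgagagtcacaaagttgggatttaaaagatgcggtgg
Birc5, chr11:117848987-117849236, plus strand: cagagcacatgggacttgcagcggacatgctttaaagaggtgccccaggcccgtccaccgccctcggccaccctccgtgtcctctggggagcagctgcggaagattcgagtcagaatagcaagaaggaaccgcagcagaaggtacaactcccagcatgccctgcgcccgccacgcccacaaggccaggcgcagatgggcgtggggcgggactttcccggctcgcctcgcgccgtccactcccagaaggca

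Across 27025 RefSeq promoters of the same length, 34.5 percent held CCAAT on either strand, against 41 of the 50 histone promoters matched (82.0 percent) and 22 of the 27 mitotic promoters matched (81.5 percent). TATAAA was in 13 percent of all promoters, in 54.0 percent of the histone promoters and in 0 of the mitotic ones. TTTGAA was in 16.3 percent of all, 44.0 percent of the histone and 29.6 percent of the mitotic promoters, and ATTTGCAT in 1.61 percent of all, 10 of the 50 histone promoters and 0 mitotic ones. Each motif was counted on its own, so letters shared by 2 motifs count for both. These are matches of letters and say nothing of the factors that bind there.

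Neuronal and synaptic genes leaned the other way. Of 26 genes of presynaptic release, 22 had a negative log2 difference (24 under each of the other scalings), with a median of -0.11, and 1 had p under 0.05 and separated the groups. Rims1, which organizes the active zone, stood at 21.7, 25.3 and 23.7 FPKM in CAMK and from 18.7 to 21.6 FPKM in CX3CL1-ct (median 19.4), with a log2 difference of -0.24 (SE 0.07, limma adjusted p = 0.783). Glutamate receptor and postsynaptic genes were negative in 26 of 33 (median -0.06), voltage-gated channel genes in 22 of 29 (median -0.07) and genes of immature neurons in 18 of 20 (median -0.07). Among genes of immature neurons, the growth cone protein Gap43 averaged 539 FPKM against 582 FPKM and the microtubule regulator Stmn2 304 FPKM against 330 FPKM, and 0 of the 20 had p under 0.05. Nlgn3, a postsynaptic adhesion protein, stood at 34.2, 36.5 and 34.5 FPKM in CAMK and from 28.2 to 32.9 FPKM in CX3CL1-ct (median 31.2), with no overlap. With CX3CL1-ct 4 to 6 alone the 4 medians were -0.06, -0.02, -0.01 and -0.11. That of immature neurons reached 0.0 without CAMK 1.

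Progenitor and hippocampal neuron lists showed no common shift. Of 23 genes of neural stem cells and radial glia 18 were positive, with a median of 0.07, and 14 of 23 were so under each of the other scalings. Lpar1, a lysophosphatidic acid receptor of progenitors, stood at 4.69, 4.06 and 4.50 FPKM in CAMK and from 4.90 to 7.45 FPKM in CX3CL1-ct (median 6.50). Intermediate progenitor and neuroblast genes were positive in 15 of 18 (11 under each of the other scalings), with a median of 0.15, which was 0.038 without CAMK 2, 0.06 with CX3CL1-ct 4 to 6 alone and 0.23 with CX3CL1-ct 1 to 3 alone. Eomes, which marks intermediate progenitors of the hippocampus and also mitral cells of the bulb, stood at 1.36, 1.41 and 1.53 FPKM in CAMK, at 11.6, 11.4 and 10.9 FPKM in CX3CL1-ct 1 to 3, and at 3.23, 2.49 and 2.12 FPKM in CX3CL1-ct 4 to 6. The 3 libraries with bulb genes had the highest levels, and the other 3 still lay above CAMK, with a log2 difference of 0.56 for them alone. For all 6 it was 1.45 (SE 0.50, limma adjusted p = 0.783), and WT stood at 4.05, 3.21 and 3.29 FPKM. Of the 11 dentate granule neuron genes 4 were positive (median -0.07), and genes of CA field pyramidal neurons in 9 of 18 (median 0.02 as deposited and -0.019 and -0.014 under the other scalings). GABAergic interneuron genes were positive in 12 of 22 (median 0.11) and Cajal-Retzius and reelin genes in 7 of 11 (median 0.09).

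Among CA field genes, Etv1 and Lmo3 separated the groups. Etv1, a transcription factor, stood at 6.40, 6.33 and 6.05 FPKM in CAMK, at 11.6, 11 and 11.2 FPKM in CX3CL1-ct 1 to 3 and at 7.87, 7.73 and 8.39 FPKM in CX3CL1-ct 4 to 6. It is one of the bulb genes too, and all 6 libraries lay above CAMK. Lmo3, a transcriptional cofactor, stood at 64.5, 62.7 and 64.6 FPKM in CAMK and from 71.7 to 89.0 FPKM in CX3CL1-ct (median 73.1), with a log2 difference of 0.23. Bcl11b, a factor of deep-layer and dentate neurons listed with neocortex, stood at 31.7, 24.8 and 26.2 FPKM against 32.1 to 40.2 FPKM (median 35.5), with a log2 difference of 0.37.

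In the pathways that the study's interest in neurogenesis points to, differences were small. TGF-β ligands, receptors and binders were positive in 15 of 22, with a median of 0.05, and 0 had p under 0.05. Tgfb2 stood at 6.07, 7.80 and 6.76 FPKM in CAMK and from 5.92 to 9.89 FPKM in CX3CL1-ct (median 6.42), and Tgfb3 at 2.31, 2.06 and 1.96 FPKM against 1.65 to 3.54 FPKM (median 3.04). Tgfb3 was split by library: CX3CL1-ct 1 to 4 lay above all CAMK and CX3CL1-ct 5 and 6 below them. The signal transducers Smad2 and Smad3 overlapped between the groups, at 21.0 to 27.1 FPKM against 23.9 to 25.7 FPKM and at 3.61 to 5.11 FPKM against 3.24 to 4.08 FPKM.

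A pair of inhibitors of the same pathways separated the groups at low levels. Tgif1, a repressor that binds Smad proteins, stood at 0.955, 1.23 and 0.952 FPKM in CAMK and from 1.35 to 1.96 FPKM in CX3CL1-ct (median 1.59), with a log2 difference of 0.35 (SE 0.11, limma adjusted p = 0.783). Smad6, the inhibitory Smad of BMP signalling, stood at 0.647, 1.04 and 0.874 FPKM against 1.08 to 1.69 FPKM (median 1.31), with a log2 difference of 0.34. They were 2 of the 4 genes with p under 0.05 among 17 Smad proteins and regulators, whose median was 0.04 as deposited, -0.006 under median-of-ratios scaling and 0.022 under quantile normalization. In CAMK, only library CAMK 2 reached the floor of 1 FPKM in Tgif1 and Smad6, so both genes passed it through CX3CL1-ct. Their separation of the groups is in part set by that floor.

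BMP ligands, receptors, antagonists and Id genes were positive in 14 of 18 under each scaling, with a median of 0.18. Bmp6, a ligand that the meninges also make, stood at 2.06, 1.97 and 1.70 FPKM in CAMK and from 2.11 to 4.66 FPKM in CX3CL1-ct (median 3.68), with a log2 difference of 0.55. Grem1, a BMP antagonist, stood at 0.813, 0.967 and 0.921 FPKM against 1.13 to 1.74 FPKM. With the meninges level as a covariate the list's median was 0.04. Bmp6 is in both lists, and the meninges level was itself higher in CX3CL1-ct. Such a fit can therefore take out part of the group difference by construction, and a meningeal source was not tested. Notch genes were positive in 16 of 21 (11 under each of the other scalings), with a median of 0.06. The Notch ligand Jag1 stood at 3.14, 2.53 and 2.92 FPKM in CAMK and from 3.27 to 4.02 FPKM in CX3CL1-ct (median 3.78), and the coactivator Maml1 at 3.04, 2.43 and 2.76 FPKM against 3.05 to 3.70 FPKM.

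Insulin and IGF genes were positive in 16 of 21 (median 0.14), among them Foxo1, the transcription factor that insulin signalling holds in the cytoplasm, at 4.40, 4.49 and 4.78 FPKM against 4.95 to 5.95 FPKM (median 5.21). Igf1 was the least even member: it stood at 12.3, 13.5 and 13.2 FPKM in CX3CL1-ct 1 to 3, at 4.72 to 6.66 FPKM in CX3CL1-ct 4 to 6 and at 4.27 to 7.38 FPKM in CAMK. Wnt genes were positive in 17 of 23 (median 0.10). FGF, neurotrophin and neuregulin genes were positive in 8 of 24 (median -0.06), which was 0.02 with CX3CL1-ct 4 to 6 alone.

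Among markers of non-neuronal cells, those of the meninges had the highest median. Of 20 meningeal and fibroblast genes 19 were positive (18 under each of the other scalings), 7 had p under 0.05, 2 separated the groups and the median was 0.38. Their summed FPKM was 133 to 146 in CAMK, and 218, 220, 215, 253, 156 and 124 in CX3CL1-ct 1 to 6. CX3CL1-ct 6 thus lay below CAMK, and CX3CL1-ct 5 near it. Aldh1a2, which makes retinoic acid in the meninges, stood at 3.07, 2.03 and 2.94 FPKM in CAMK and from 3.18 to 6.92 FPKM in CX3CL1-ct (median 5.73), with a log2 difference of 0.75 (SE 0.21, limma adjusted p = 0.783). Slc6a13, a transporter of the same cells, stood at 6.09, 4.33 and 6.14 FPKM in CAMK, and at 10.3 to 13.6 FPKM in CX3CL1-ct 1 to 4 but 6.15 and 6.13 FPKM in CX3CL1-ct 5 and 6. None of the 21 members in the table was at 0 in any of the 9 libraries. In bulk tissue fewer cells of a type and less RNA per cell cannot be told apart.

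Genes of retinoic acid signalling were positive in 15 of 17 (14 and 13 under the other scalings), with a median of 0.26, or 0.09 with the meninges level as a covariate and 0.132 without CX3CL1-ct 5. Stra6, the receptor that takes up retinol, stood at 1.08, 1.57 and 1.31 FPKM in CAMK and from 1.65 to 2.72 FPKM in CX3CL1-ct (median 1.98). Collagen genes were positive in 22 of 27 (median 0.14), and that median was -0.01 with the meninges covariate. The limit of that covariate given for the BMP list holds for both lists here, and Aldh1a2 is in the retinoic acid and meninges lists. Erythroid genes were positive in 7 of 7 (median 0.24), with Hba-a2, an α-globin gene, at 15.2, 8.88 and 11.9 FPKM in CAMK and from 13.7 to 40.5 FPKM in CX3CL1-ct (median 19.2).

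Of 23 genes of endothelium and pericytes 20 were positive (median 0.09) and of 22 microglia genes 18 (median 0.08), and 0 members of either had p under 0.05. Csf1r, the growth factor receptor of microglia, averaged 8.17 FPKM in CX3CL1-ct and 6.79 FPKM in CAMK. Astrocyte genes were positive in 13 of 20 (median 0.09). Among them Sparcl1, a synapse-promoting matrix protein, stood at 186, 162 and 172 FPKM in CAMK and from 198 to 221 FPKM in CX3CL1-ct (median 212), without overlap and with a log2 difference of 0.27 (SE 0.06, limma adjusted p = 0.783). Genes of oligodendrocyte precursors and myelin were positive in 9 of 17 (4 and 6 under the other scalings). Choroid plexus genes were positive in 10 of 15 (6 under each of the other scalings), and their summed FPKM ran from 129 in CAMK 1 to 953 in CAMK 2, so both groups varied widely. Ependymal and cilia genes were positive in 6 of 17 (median -0.04), thalamus genes in 3 of 18 (median -0.25), and striatum genes in 14 of 21 (median 0.05, and -0.164 without CX3CL1-ct 5). The thalamus median was -0.639 without CAMK 1 and -0.014 without CAMK 2.

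**Figure D5:**
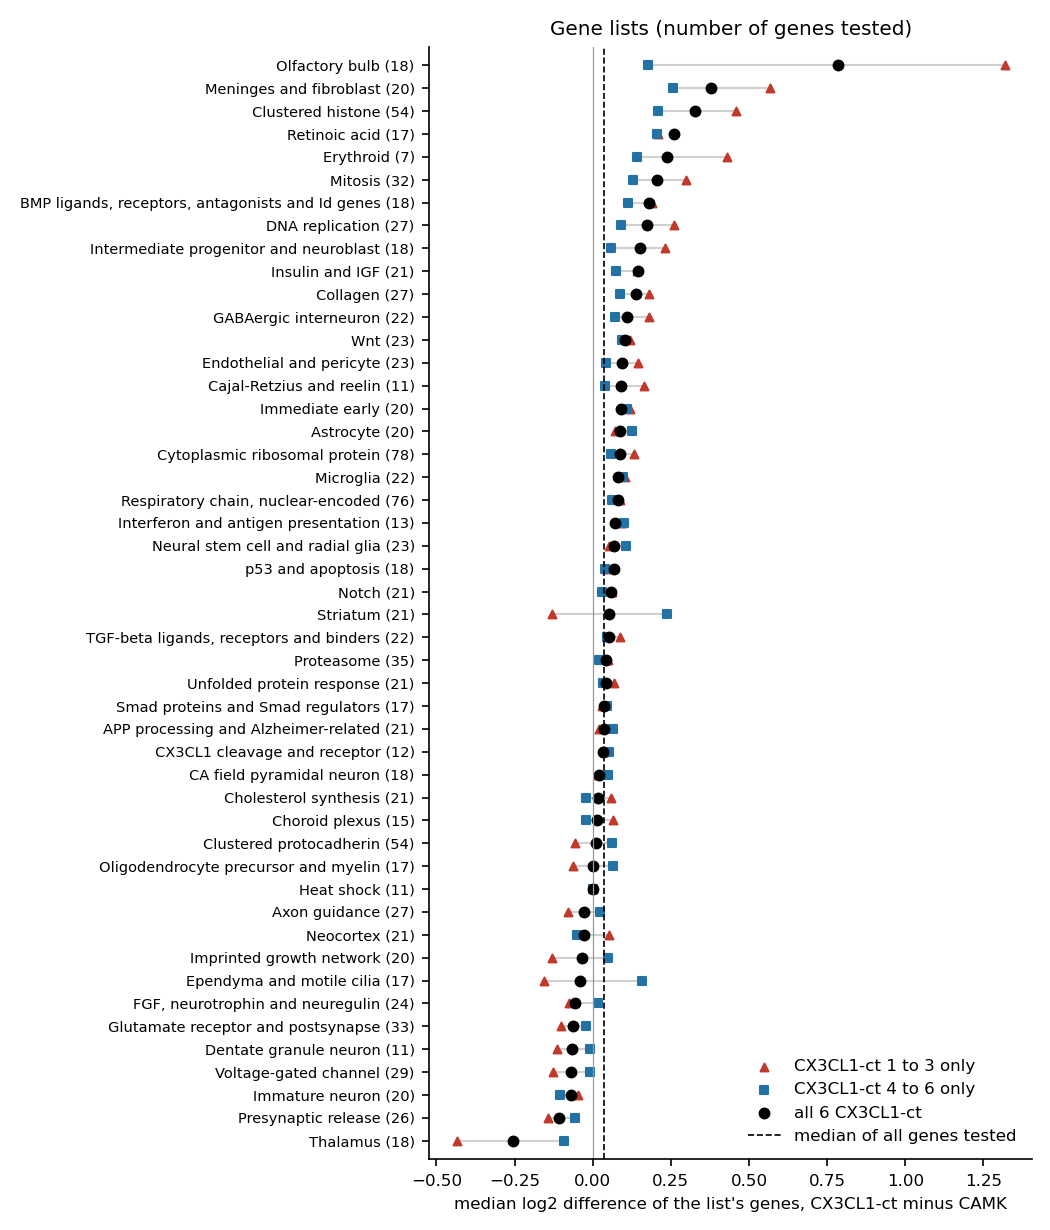
Median log2 difference (x axis) of each gene list (y axis, number of genes tested in brackets) between CX3CL1-ct and CAMK, with all 6 CX3CL1-ct libraries (black), with 1 to 3 only (red) and with 4 to 6 only (blue). The dashed line is the median of all genes, 0.036, and the histone (0.33), mitosis (0.21) and meninges (0.38) lists lie to the right of it in each set, while the striatum list changes side.

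Housekeeping lists differed by less. Cytoplasmic ribosomal protein genes were positive in 65 of 78 (median 0.09, and 0.043 under median-of-ratios scaling), and nuclear-encoded respiratory chain genes in 68 of 76 (median 0.08, and 0.036). Rpl7, of the large ribosomal subunit, stood at 148, 151 and 159 FPKM in CAMK and from 162 to 182 FPKM in CX3CL1-ct (median 170), with a log2 difference of 0.17. Proteasome genes were positive in 27 of 35, with a median of 0.04 that was 0 under median-of-ratios scaling. Genes of the unfolded protein response were positive in 18 of 21 (median 0.04), immediate early genes in 18 of 20 (median 0.09), p53 and apoptosis genes in 13 of 18 (median 0.07) and interferon and antigen presentation genes in 12 of 13 (median 0.07), and these medians keep their sign under both scalings. Cholesterol synthesis genes were positive in 14 of 21 and genes of APP processing and Alzheimer's disease in 16 of 21, with medians of 0.02 and 0.04 that were -0.026 and -0.008 under median-of-ratios scaling.

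The heat shock list had a median of 0.00, but 2 of its members stood out in opposite directions. Hspe1, the mitochondrial co-chaperonin, stood at 46.3, 46.7 and 45.9 FPKM in CAMK and from 49.5 to 59.6 FPKM in CX3CL1-ct (median 55.5), with a log2 difference of 0.26 (SE 0.06, limma adjusted p = 0.783). Hspa8, the constitutive cytosolic HSP70, stood at 540, 471 and 507 FPKM in CAMK and at 274, 276, 260, 250 and 291 FPKM in CX3CL1-ct 1, 2, 3, 5 and 6, but at 525 FPKM in CX3CL1-ct 4. In 5 libraries the level lay far below CAMK, and in CX3CL1-ct 4 within its range. The log2 difference of Hspa8 was -0.74 (SE 0.21, limma adjusted p = 0.783), and without CX3CL1-ct 4 it was -0.90 and passed the test (0.0106). WT stood at 515, 223 and 366 FPKM. Clustered protocadherins were positive in 29 of 54 (20 and 19 under the other scalings), and Pcdha7 stood at 6.20, 6.24 and 6.51 FPKM in CAMK against 5.43 to 5.83 FPKM in CX3CL1-ct. Imprinted growth genes were positive in 6 of 20 (median -0.04), axon guidance genes in 10 of 27 (median -0.03) and neocortex genes in 8 of 21 (median -0.03).

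Of the other genes with the largest differences among those that separated the groups, several followed CX3CL1-ct 1 to 3. Frmd7, a cytoskeletal protein of the FERM family, stood at 5.58 to 5.93 FPKM in CX3CL1-ct 1 to 3 and at 0.585 to 0.970 FPKM in CX3CL1-ct 4 to 6, against 0.277 to 0.434 FPKM in CAMK. Nmb, the neuropeptide neuromedin B, stood at 5.90 to 8.35 FPKM and 2.25 to 3.45 FPKM in the same 2 sets, against 1.69 to 2.06 FPKM. Sall1, a zinc finger factor, Filip1l and Gas2l3 had the same order, with log2 differences of 0.63, 0.62 and 0.56 over all 6 libraries and of 0.34, 0.15 and 0.22 with CX3CL1-ct 4 to 6 alone. Apoa2, an apolipoprotein, did not follow these libraries: it stood at 0.422, 0.951 and 0.560 FPKM in CAMK, and from 1.38 to 2.87 FPKM in CX3CL1-ct with its highest values in CX3CL1-ct 3 and 5. Like Frmd7, Shc4 and Grem1, whose CAMK values are also all under 1 FPKM, it passed the floor only through CX3CL1-ct, so a separation of the groups is in part set by that floor. The same holds for Filip1l, at 0.953, 1.01 and 0.706 FPKM in CAMK 1, 2 and 3. The log2 difference of Apoa2 was 0.88 (SE 0.21, limma adjusted p = 0.783).

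Among the lower genes, Dubr, a noncoding RNA, and Ptpn3, a phosphatase, varied little within CX3CL1-ct. Dubr stood at 11, 13.7 and 12.4 FPKM in CAMK and from 9.02 to 10.1 FPKM in CX3CL1-ct (median 9.36), with a log2 difference of -0.36 (SE 0.07, limma adjusted p = 0.735). Ptpn3 stood at 1.99, 2.75 and 3 FPKM against 1.55 to 1.95 FPKM (median 1.75), with a log2 difference of -0.37. In both, the 6 CX3CL1-ct libraries varied less than the 3 of CAMK. Zdhhc22 and Zdhhc2, palmitoyltransferases of neurons, differed by -0.37 and -0.29 on the log2 scale, Zdhhc2 from 54.0, 55.1 and 58.2 FPKM in CAMK to 39.1 to 53.1 FPKM in CX3CL1-ct (median 44.4). Chodl, a lectin-like membrane protein, was uneven: it stood at 5.37, 5.37 and 5.49 FPKM in CAMK, at 5.21 FPKM in CX3CL1-ct 4 and 5, and at 1.88 to 3.03 FPKM in the other 4. The nicotinamide methyltransferase Nnmt (-0.43), the octamer-binding factor Pou2f2 (-0.28), Spaca6 (-0.27), Creg2 (-0.26) and Cdyl2 (-0.24) also lay below CAMK in every library, none with an adjusted p under 0.05.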

How the data were processed

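The libraries were rRNA-depleted, stranded total RNA read as paired ends, per the labels' protocols. The FPKM values are those the authors deposited, in 1 table of 29454 genes. TopHat, Bowtie, Cufflinks and Cuffdiff with mm10 are named, per the submitters' processing notes, without versions or settings. A mapped fragment count is not in the table, so the depth was estimated from the smallest FPKM steps of 4571 genes with an assumed fragment length of 180 nt, and it limits low genes most. Groups follow the labels. Of the genes, 29258 matched GENCODE M21.

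Genes that reached 1 FPKM in 3 or more of the 9 libraries were tested on log2(FPKM + 1) with limma 3.58.1 (trend, R 4.3.3) and Benjamini-Hochberg adjustment over all genes tested, with 0.05 as the threshold. Single values were compared by exact permutation (Python 3.11.15). The fit was tested on simulated data.

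The comparison, gene lists and alternatives were chosen with earlier results of these data known, and the olfactory bulb list, the window around Eid1 and the fits without or averaging CX3CL1-ct 1 to 3 after seeing the data. Named are the target genes, genes past the threshold, the 12 largest differences per direction among genes with p under 0.05, no overlap and a higher group mean of 2 FPKM or more (without predicted genes, small RNAs and pseudogenes), up to 3 members per list with no overlap and the smallest p, the member per list that varied most within CX3CL1-ct, and genes at 0 in a whole group. Further genes named (such as Adam10, Slbp, Mki67, Top2a, Gap43, Stmn2, Csf1r, Snord47, Ptgds, Slc6a13 and the markers of other tissues) were chosen for their role or after their values were seen. Some genes the rule picks are not reported here. A list is described by its counts and its median beside those of all genes. Alternatives were other pseudocounts, filters, scalings, limma settings, covariates (Xist, striatum and meninges lists) and sets of libraries.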

Additional observations from a re-analysis of the deposited data

Results flagged for a closer look

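In the CX3CL1-ct group, 35 of the genes (99 checked) and list levels (49 checked) had a library whose gap to its nearest neighbour, as a share of the group's range, passed Dixon's critical value. The genes checked include the member of each list that varied most within CX3CL1-ct. This count therefore cannot be set against the chance rate of about 1 in 20, and flags of 1 library are not independent. CX3CL1-ct 5 was that library most often. It was highest for Smad3 (5.11 FPKM), Lmo3 (89.0), Tcf7l2 (12.2), Ebf3 (10), Gria4 (51.2), Ntn1 (9.02), Rxrg (17.8), Otx2 (9.21), Isl1 (10.6) and Foxp2 (28.5). Further values at an end of its group in CX3CL1-ct 5 were Ctgf (2.05 FPKM), Id4 (67.3), Neurod2 (11.3), Slc17a7 (17.4), Pcdhga8 (36.6), Cdkn1a (12.4), Mvd (15.6), Col25a1 (11.9) and Peg10 (22). Its mean log2 levels stood apart for the striatum list (3.968), the thalamus list (3.271), TGF-β genes (2.483), CA field neurons (4.164), cholesterol synthesis (4.696) and oligodendrocyte precursors and myelin (3.557).

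CX3CL1-ct 4 stood apart for Tgfb2 (9.89 FPKM), Hspa8 (525.0), Acta2 (12.4), the globin gene Hba-a2 (40.5) and Aph1c (1.39). CX3CL1-ct 6 stood apart for Dubr (10.1 FPKM) and for the mean levels of the Cajal-Retzius (3.701), interferon (2.416) and choroid plexus (1.796) lists. In CX3CL1-ct 1, Eid1 was 131.0 FPKM, the lowest of the group and still far above CAMK.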

How the results depend on the processing

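The count of 1 gene past the threshold was 0 with a pseudocount of 0.1, with all 12 libraries, with a robust prior, with the meninges covariate and with CX3CL1-ct 1 to 3 averaged. It was 2 without a trend, 3 with the striatum covariate and 3 without CX3CL1-ct 5 and CAMK 2 together. It was 11 with genes at 0 in a whole group kept, which adds such genes by construction, and 242 with CX3CL1-ct 4 to 6 left out. Leaving out 1 library gave 1 to 3 genes. Unadjusted p under 0.05 was reached by 629 genes without CAMK 2 and by 1627 without CX3CL1-ct 5. In fits called at 0, 1001 genes (pseudocount 0.1), 1021 (all 12 libraries), 976 (robust prior), 545 (meninges) and 495 (averaged) had an unadjusted p under 0.05. Libraries share numbers 1 to 3, but nothing ties same-numbered libraries: deviations correlated at 0.144, -0.158 and -0.111. CAMK 1 correlated best with CX3CL1-ct 4 (0.192), and CAMK 2 and 3 did not correlate best with their own number either. With that number as a block, in libraries 1 to 3 alone, 25 genes passed. Other causes were not tested.

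Log2 differences near 0 changed sign. That of Cx3cl1 (0.01) was -0.06 with array weights, -0.04 and -0.02 under median-of-ratios and quantile scaling, -0.01 with the Xist covariate, -0.14 in the block fit, -0.07 without CX3CL1-ct 5 and CAMK 2, -0.14 with CX3CL1-ct 4 to 6 left out, and -0.06 to 0.07 leaving out 1 library. That of Cx3cr1 (-0.01) was 0.09 with the Xist covariate, 0.02 without CX3CL1-ct 5 and CAMK 2, 0.08 with CX3CL1-ct 1 to 3 left out, 0.03 with these averaged, and -0.15 to 0.07 leaving out 1 library. In the last 4 settings in the same order, Camk2a (-0.03) had 0.01, 0.05, 0.01 and -0.12 to 0.06, and Tgfb2 (-0.01) had 0.1, 0.08, 0.04 and -0.11 to 0.07. Tgfb3 (0.23) had -0.13 with the meninges covariate and -0.03 with CX3CL1-ct 1 to 3 left out, and Smad2 (-0.04) had 0.03 with the meninges covariate. Of 49 list medians, 9 changed sign under another scaling, while the median of all genes went from 0.036 to -0.0022 under median-of-ratios. Leaving out 1 library gave medians of 0.05 to 0.199 for immediate early genes, 0.027 to 0.108 for respiratory chain genes, 0.046 to 0.119 for ribosomal protein genes and -0.133 to 0.085 for imprinted genes. Low genes are limited by depth, since a pseudocount of 1 shrinks their differences.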
